A study of Mus musculus with 236 samples.

Results

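Top2a, Mki67, Cenpe, Cenpf, Bub1, Kif11, Tpx2 and Aspm, 8 genes that act on chromosomes and the spindle in mitosis, were followed in single mouse embryonic stem cells by day of differentiation and by cell cycle class. They were taken by name, as 8 of the 39300 genes in the deposited table of unique molecular identifiers (UMIs, tags that count single RNA molecules), and not by their measured levels. Earlier results of these data were known when they were chosen. The study asked how chromatin changes while random X inactivation begins. Each cell was profiled with HiRES, which reads chromatin contacts and RNA from the same cell. The line was female, came from blastocysts of a C57BL/6J mother and a CAST/EiJ father at embryonic day 3.5, and is a single line, so no second genetic background stands beside it. The groups were day 2.5 and day 0.5 after the start of differentiation, in which medium with serum but without LIF, the Gsk3 inhibitor CT99021 and the MEK inhibitor PD0325901 was given to cells on fibronectin. Before that, cells of both groups had grown in serum medium with LIF and both inhibitors.

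Expression of this kind of gene follows the cell cycle. The mRNAs accumulate during S phase and G2, the proteins build the spindle, the kinetochores and the condensed chromosomes, and most are removed at mitotic exit, so that G1 cells hold little. Embryonic stem cells have a short G1 and divide fast, and G1 lengthens as they leave the naive state.

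The table held 406 cells of these days. The median depth was 15796 UMIs (529 to 29275) in day 2.5 cells and 13670 UMIs (501 to 23213) in day 0.5 cells. No cell was named in more than 1 library. No label names separate cultures, so each day counts as a single sample, no p-value was computed, and all 95% intervals cover counting error only. The deposited cell tables give a label under the header sample, of unknown meaning, here called batch. Batch 2 held cells of both days, batch 3 held 83 cells of day 2.5 only, and batch 1 held 80 cells of day 0.5 only. As a check of the cell type, the 13 embryonic stem cell markers summed to 495 CPM (UMIs of a gene scaled to the same total in every group) at day 2.5, with 12 detected, and to 1464 CPM at day 0.5, with all 13 detected. The 8 feeder fibroblast markers summed to 9.42 CPM at day 2.5 and 9.04 CPM at day 0.5, and Postn was at 0 on both days. With each cell thinned to 5000 UMIs, the most frequent of them were Dcn, in 3 day 2.5 cells (1.52%) and 1 day 0.5 cell (0.515%), and Thy1, in 1 day 2.5 cell (0.505%) and 5 day 0.5 cells (2.58%). Primitive endoderm markers summed to 109.5 CPM at day 2.5 and 45.9 CPM at day 0.5. Of these 9 genes, 4 at day 2.5 and 2 at day 0.5 were at 10 CPM or more. Neuroectoderm markers summed to 141.8 CPM at day 2.5 and 89.6 CPM at day 0.5. Only 1 of the 6 in the table was at 10 CPM or more on each day. Trophectoderm markers summed to 14.1 CPM at day 2.5 and 19.4 CPM at day 0.5. These sums over all cells of a day do not show that cells of another type were present. Whether such RNA bears on the day differences below was not tested.

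Every cell carried a class from the authors' cell tables, G0, G1, Early-S, Mid-S, Late-S, G2 or M. No source used here says how the class was made. The tables also hold an S score and a G2M score per cell, headed as Seurat names them, and all of these genes except Aspm are in the G2M list commonly used with Seurat. Class contrasts are therefore given as descriptions. The class names and the RNA scores went different ways. The median G2M score was 0.135 in the Mid-S class and -0.188 in the G1 class at day 2.5, while the median S score was -0.120 in Mid-S and 0.171 in G1. At day 0.5 the median G2M score was 0.0663 in Mid-S and -0.0996 in G1, and the median S score was 0.00566 in Mid-S and 0.261 in G1. Cells of the Mid-S class thus scored higher for G2M genes and lower for S genes than cells of the G1 class, and class names below are the authors' labels. The M class stood apart in the contact data and in depth. Its median share of contacts between chromosomes was 3.66% at day 2.5 and 2.51% at day 0.5, against 7.34% and 5.20% in the G1 class, and its cells had a median of 4819 and 5818 UMIs. The share of gene UMIs on exons differed little between classes, from 23.4% to 25.1% over the classes of day 2.5 and from 25.7% to 27.2% over those of day 0.5, so that most UMIs lay outside exons.

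The promoters are shown because genes of this kind are known for shared elements near the start. The CHR element, bound by the DREAM and B-MYB complexes, and CCAAT boxes, bound by NF-Y, are known from genes expressed late in the cycle, and E2F sites from genes of the G1 to S transition. RefSeq promoters of build GRCm38.p6 were at hand for 7 of the 8 genes. For Top2a, Mki67, Cenpf and Aspm the start of the promoter entry lies inside the gene's RefSeq span, not at its end. Each line below gives 100 bases before and 20 bases after the annotated start, 5′ to 3′ on the strand of the gene. Capitals mark CHR letters (TTTGAA or TTCGAA) and CCAAT on either strand.
Top2a (chr11:99024170-99024289, minus strand): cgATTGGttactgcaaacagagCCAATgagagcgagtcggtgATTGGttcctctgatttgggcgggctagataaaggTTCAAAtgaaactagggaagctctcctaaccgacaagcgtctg
Mki67 (chr7:135716360-135716479, minus strand): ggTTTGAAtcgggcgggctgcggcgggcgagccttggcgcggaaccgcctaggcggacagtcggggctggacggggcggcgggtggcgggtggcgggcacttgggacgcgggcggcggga
Cenpe (chr3:135212463-135212582, plus strand): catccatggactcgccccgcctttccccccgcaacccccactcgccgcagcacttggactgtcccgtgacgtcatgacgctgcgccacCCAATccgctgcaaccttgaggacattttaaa
Cenpf (chr1:189688067-189688186, minus strand): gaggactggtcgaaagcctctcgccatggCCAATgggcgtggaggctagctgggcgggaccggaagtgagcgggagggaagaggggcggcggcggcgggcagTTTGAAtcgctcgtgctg
Bub1 (chr2:127831840-127831959, minus strand): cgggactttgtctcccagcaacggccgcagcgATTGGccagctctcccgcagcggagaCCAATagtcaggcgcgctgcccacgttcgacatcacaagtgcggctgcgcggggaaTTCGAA
Kif11 (chr19:37376282-37376401, plus strand): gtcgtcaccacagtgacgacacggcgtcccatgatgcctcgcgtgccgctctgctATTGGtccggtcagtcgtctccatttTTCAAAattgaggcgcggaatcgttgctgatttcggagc
Aspm (chr1:139454673-139454792, plus strand): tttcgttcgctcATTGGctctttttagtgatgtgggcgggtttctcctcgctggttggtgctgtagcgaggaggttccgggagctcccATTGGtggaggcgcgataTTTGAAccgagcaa

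Over the whole 300 bases of each promoter, CHR letters lay in 6 of the 7 genes, all but Cenpe, and in 19.2% of the 32851 promoters of the table. CCAAT lay in 7 of 7, against 37.4% of all promoters, and both lay in 6 of 7, against 7.52%. The Top2a promoter held 6 CCAAT copies, a number reached by 26 promoters or 0.0791% of all. The E2F letters TTCCCGC and TTTGGCGC, searched on both strands, were in 0 of 7 of these promoters, against 5.06% of all promoters and 56.7% of the 30 promoters of an S phase gene list. In the promoters of 6 lists of other mitotic genes, CHR letters were in 56.2%, CCAAT in 61.2% and E2F letters in 17.4%. No 2 matches overlapped in the 7 promoters. In Cenpf, Aspm and Bub1 the CHR letters began 3, 7 and 15 bases into the transcribed side, so in the 100 bases before the start CHR letters were in 3 of 7 genes (6.13% of all promoters) and CCAAT in 6 of 7 (18.9%). A match is a description of letters and no evidence of binding.

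Across all cells, the 8 genes together made up 1542 CPM at day 2.5 and 1432 CPM at day 0.5, a ratio of 1.08 (95% interval 1.03 to 1.12). Top2a alone gave 608 CPM of this sum at day 2.5 and 502 CPM at day 0.5, the most of the 8, so the sum leans on this gene. No single gene passed a CPM ratio of 1.5 either way, the size used here, with at least 20 UMIs, to call a gene higher or lower without a test. The share of all 13777 measured genes past it was 21.4% higher and 25.6% lower. The 8 ratios ranged from 0.760 to 1.47 with a median of 1.05, against a median of 0.945 over all measured genes. Scaling by the median gene instead of total UMIs moved every day ratio by 0.18 on the log2 scale, which put the sum at 1.22 and Bub1 past 1.5, while thinning cells to 5000 UMIs put the sum at 0.989.

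Among the chromosome proteins, Top2a encodes topoisomerase II alpha, which untangles sister DNA and helps chromosomes condense. Top2a reached 623 CPM in batch 2 and 589.9 CPM in batch 3 of day 2.5, against 513 CPM in batch 1 and 492 CPM in batch 2 of day 0.5, a ratio of 1.21 (1.13 to 1.30). Both day 2.5 batches lay above both day 0.5 batches. Mki67, which encodes Ki-67, the proliferation marker that coats mitotic chromosomes and keeps them apart, lay the other way. Mki67 reached 123.4 CPM in batch 2 and 133.2 CPM in batch 3 of day 2.5, against 162.9 CPM in batch 1 and 163.1 CPM in batch 2 of day 0.5, a ratio of 0.784 (0.683 to 0.899). Both day 2.5 batches lay below both day 0.5 batches for Mki67. For Top2a and Mki67 the counting intervals of the days overlapped in part. For how many of all genes the batch levels split in this way was not counted.

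Among the kinetochore genes, Bub1 encodes a kinase of the spindle checkpoint, which holds anaphase until all chromosomes are attached. Bub1 reached 130.1 CPM in batch 2 and 124.7 CPM in batch 3 of day 2.5, against 76.5 CPM in batch 1 and 95.8 CPM in batch 2 of day 0.5. Its ratio of 1.47 (1.25 to 1.73) was the highest of the 8, and 1.36 within batch 2. Cenpf, a large coiled-coil protein of the outer kinetochore, had the lowest ratio, 0.760 (0.652 to 0.885). Cenpf reached 101.4 CPM in batch 2 and 105.6 CPM in batch 3 of day 2.5, against 150.6 CPM in batch 1 and 123.6 CPM in batch 2 of day 0.5. Both day 2.5 batches lay below both day 0.5 batches for Cenpf, with counting intervals that overlapped in part. Within batch 2 the Cenpf ratio was 0.821 (0.663 to 1.02), an interval that held 1. Cenpe, the kinetochore kinesin that carries chromosomes to the spindle equator, reached 158.3 CPM in batch 2 and 180.7 CPM in batch 3 of day 2.5, against 172.4 CPM in batch 1 and 126.4 CPM in batch 2 of day 0.5. These ranges overlapped, and the ratio was 1.14 (1.00 to 1.30) over all cells and 1.25 (1.04 to 1.52) within batch 2.

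For all 3 spindle genes the counting interval of the day ratio over all cells held 1. Within batch 2 the interval lay above 1 for Kif11 (1.21, 1.02 to 1.45) and held 1 for Tpx2 and Aspm. Kif11, the kinesin-5 motor that pushes the spindle poles apart, reached 180.3 CPM in batch 2 and 129.3 CPM in batch 3 of day 2.5, against 148.9 CPM in batch 1 and 148.6 CPM in batch 2 of day 0.5, a ratio of 1.06 (0.928 to 1.21). Its day 2.5 batches lay on either side of the day 0.5 batches. Tpx2, which activates Aurora A and nucleates spindle microtubules, reached 205.6 CPM in batch 2 and 205.9 CPM in batch 3 of day 2.5, against 222.1 CPM in batch 1 and 178.1 CPM in batch 2 of day 0.5, a ratio of 1.04 (0.924 to 1.17). Aspm, a spindle pole protein known from human microcephaly, reached 43.4 CPM in batch 2 and 42.5 CPM in batch 3 of day 2.5, against 51.01 CPM in batch 1 and 49.98 CPM in batch 2 of day 0.5, a ratio of 0.852 (0.667 to 1.09). Both day 2.5 batches lay below both day 0.5 batches for Aspm, with overlapping counting intervals.

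**Figure D1:**
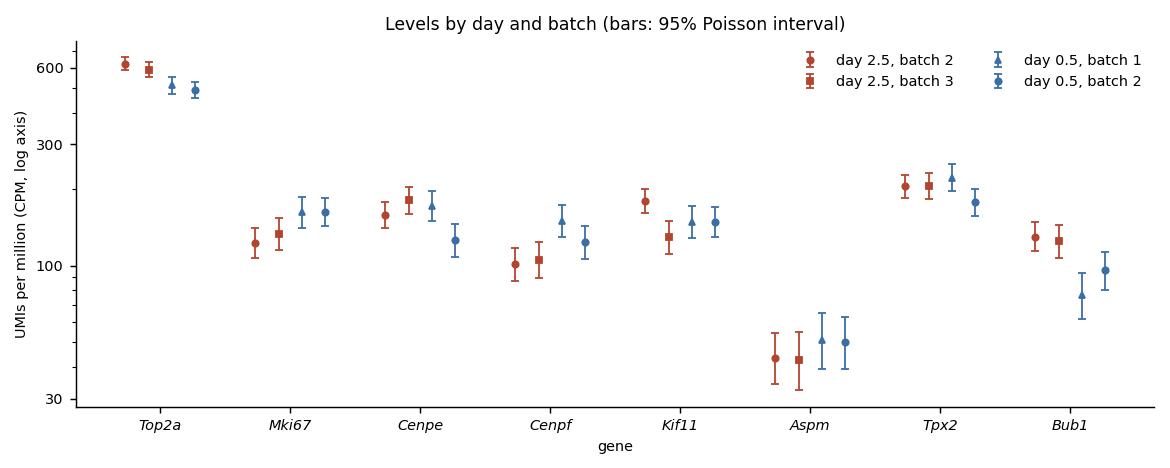
CPM (log axis) of the 8 genes in batches 2 and 3 of day 2.5 and batches 1 and 2 of day 0.5, with 95% Poisson intervals. The levels of Top2a and Bub1 sit higher in both day 2.5 batches, those of Mki67, Cenpf and Aspm lower. In each of these genes the intervals of the days overlap in part. For how many of all genes the batches split in this way was not counted.

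Levels of different genes were compared per length. Per kilobase of the gene's span in RefSeq, which ranged from 26.7 kb for Mki67 to 60.98 kb for Cenpe, Top2a led with 19.5 CPM per kb at day 2.5 and 16.1 at day 0.5. Aspm was lowest, with 1.08 CPM per kb at day 2.5 and 1.26 at day 0.5. The other 6 lay between 2.17 and 4.79 CPM per kb at day 2.5 and between 2.42 and 6.11 at day 0.5. Of the genes without a printed promoter, Tpx2 spans chr2:152847964-152895321 in GRCm38.p6.

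The classes held different shares of the cells of each day. G1 took 82 cells, or 40.0%, of day 2.5 and 41, or 20.4%, of day 0.5, while Mid-S took 62, or 30.2%, of day 2.5 and 87, or 43.3%, of day 0.5. With equal weight for the 4 classes of at least 10 cells on both days, G1, Early-S, Mid-S and Late-S, the summed ratio of day 2.5 over day 0.5 was 1.28 in place of 1.08. The next comparison therefore went through the classes within each day.

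In the Mid-S class 7 of the 8 genes at day 2.5 and 5 at day 0.5 stood above the G1 class by at least the size of a call. The 8 genes together were at 2171 CPM in Mid-S and 919.9 CPM in G1 at day 2.5, a ratio of 2.36 (2.19 to 2.54). At day 0.5 they were at 1585 CPM in Mid-S and 991 CPM in G1, a ratio of 1.60 (1.45 to 1.77). The exception at day 2.5 was Bub1, where 12.1% of 9700 measured genes were higher and 18.8% lower. The exceptions at day 0.5 were Top2a, Mki67 and Bub1, where 13.7% of 9010 genes were higher and 16.6% lower, and none was lower on either day. The median of the 8 ratios was 3.72 at day 2.5 and 1.88 at day 0.5, against 0.959 over all measured genes on both days.

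Over all cells Tpx2 had the highest ratio of Mid-S over G1, with an interval that overlapped those of Cenpf and Cenpe. Tpx2 was at 337 CPM in Mid-S and 63.3 CPM in G1 at day 2.5, a ratio of 5.32 (4.12 to 6.96), and at 242 CPM in Mid-S and 55.4 CPM in G1 at day 0.5, a ratio of 4.38 (2.96 to 6.72). With cells thinned to 5000 UMIs, 85.2% of Mid-S cells and 22.5% of G1 cells had a Tpx2 UMI at day 2.5, against 66.7% of Mid-S cells and 24.4% of G1 cells at day 0.5. No cell type that lacks these genes was at hand to measure the background of free RNA.

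Cenpe and Cenpf, of the kinetochore, had ratios near that of Tpx2 at day 2.5, where Cenpe was above Tpx2 within batch 2 (4.49 and 4.21) and Cenpf within batch 3 (10.8 and 7.35). Cenpe was at 284 CPM in Mid-S and 62.8 CPM in G1 at day 2.5, and at 189.9 CPM in Mid-S and 84.6 CPM in G1 at day 0.5, ratios of 4.52 (3.48 to 5.93) and 2.24 (1.61 to 3.20). Cenpf was at 164.7 CPM in Mid-S and 35.1 CPM in G1 at day 2.5, and at 154.5 CPM in Mid-S and 68.5 CPM in G1 at day 0.5, ratios of 4.69 (3.31 to 6.78) and 2.26 (1.56 to 3.35). In both, the Mid-S to G1 range was wider at day 2.5, and the interval of the ratio of ratios lay above 1 for Cenpe (2.01, 1.33 to 3.06) and Cenpf (2.08, 1.26 to 3.43). It also lay above 1 for Kif11 (2.11, 1.44 to 3.10) and Top2a (1.39, 1.15 to 1.68). For Mki67, Aspm, Tpx2 and Bub1 it held 1. For Cenpf the wider range rested in part on batch 3, where G1 held 11 UMIs. Its ratio was 10.8 in batch 3 and 2.76 in batch 2 at day 2.5, and 3.30 in batch 1 and 1.65 in batch 2 at day 0.5.

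Kif11 and Aspm, motor and pole protein of the spindle, were higher in Mid-S on both days as well. Kif11 was at 238.2 CPM in Mid-S and 74.2 CPM in G1 at day 2.5, a ratio of 3.21 (2.4996 to 4.15), and at 171.1 CPM in Mid-S and 112.8 CPM in G1 at day 0.5, a ratio of 1.52 (1.13 to 2.08). Aspm was at 66.99 CPM in Mid-S and 15.8 CPM in G1 at day 2.5, a ratio of 4.24 (2.5002 to 7.55), and at 65.04 CPM in Mid-S and 28.2 CPM in G1 at day 0.5, a ratio of 2.31 (1.30 to 4.41). The Kif11 ratio at day 2.5 was 6.00 in batch 3 and 2.23 in batch 2, and the G1 class of batch 3 held 38.7 CPM of it, against 108.3 CPM in that of batch 2.

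Top2a, Mki67 and Bub1 had the smallest differences between the classes. Top2a was at 758 CPM in Mid-S and 467 CPM in G1 at day 2.5, a ratio of 1.62 (1.45 to 1.81), and at 503 CPM in Mid-S and 432 CPM in G1 at day 0.5, a ratio of 1.17 (0.996 to 1.37). Mki67 had ratios of 1.75 (1.37 to 2.24) at day 2.5 and 1.32 (0.997 to 1.78) at day 0.5, and Bub1 1.46 (1.15 to 1.87) at day 2.5 and 1.10 (0.759 to 1.62) at day 0.5. In day 2.5 cells of batch 2 the ratio was 1.39 for Top2a and 1.45 for Mki67, under the size of a call, and 1.55 for Bub1, above it.

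**Figure D2:**
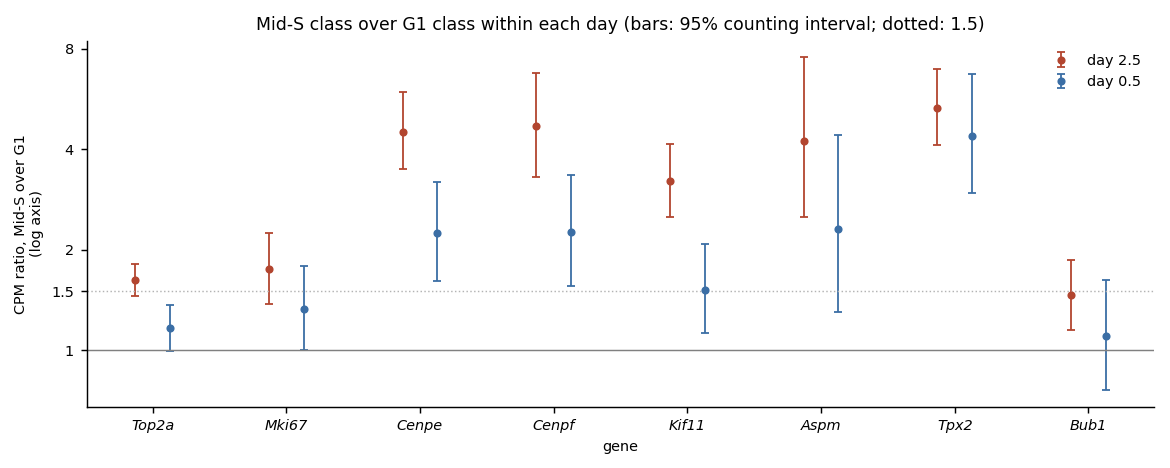
CPM ratio (log axis) of the Mid-S class over the G1 class for each gene at day 2.5 and day 0.5, with 95% counting intervals. Every day 2.5 ratio lies above the day 0.5 ratio of the same gene, with Tpx2 highest (5.32 and 4.38) and Bub1 lowest (1.46 and 1.10).

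Only batch 2 held both days, and there the contrast of the sum was steeper at day 2.5. The summed Mid-S over G1 ratio in batch 2 was 1.98 at day 2.5 and 1.45 at day 0.5. It was 2.98 in batch 3 of day 2.5 and 1.75 in batch 1 of day 0.5. At day 2.5 the G1 class was at 786 CPM in batch 3 and 1048 CPM in batch 2. Over all cells, the day 2.5 ratio divided by the day 0.5 ratio was 1.47 (1.30 to 1.67). Batches 1 and 3 each held a single day, so in them day and batch cannot be told apart.

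The summed level was higher in Early-S than in G1 and higher again in Mid-S and Late-S. At day 2.5 it was 155.2 CPM in G0, 919.9 in G1, 1508 in Early-S, 2171 in Mid-S, 2226 in Late-S, 1397 in G2 and 1318 in M. At day 0.5, where no cell was in G0, it was 991 CPM in G1, 1187 in Early-S, 1585 in Mid-S, 1564 in Late-S, 1931 in G2 and 1913 in M. The intervals of Mid-S and Late-S overlapped on both days. After Late-S the days parted, with G2 and M lower than Late-S at day 2.5 and higher, with overlapping intervals, at day 0.5, on 18 and 7 cells at day 2.5 and 6 and 15 cells at day 0.5.

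The 4 cells of the G0 class, all of day 2.5, held 8 UMIs of these genes among 51558. Mki67, Cenpe, Cenpf and Kif11 had none, which allows each up to 58.2 CPM at 3 counts over the class. Top2a had 3 UMIs, or 58.2 CPM. In 2 of these 4 cells no UMI of any of the 8 genes was found, at 7864 and 10687 UMIs, as in 2 of the 82 day 2.5 G1 cells and in none of the day 0.5 cells.

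Within the G2 class of day 2.5 single genes split. Top2a was at 429.8 CPM (366 to 501) in G2, below 870.0 CPM (760 to 992) in Late-S and near the 467 CPM of G1, while Cenpe was at 199.6 CPM in G2 and 191.2 CPM in Late-S. The class was also mixed by cell, with a median of 14.3 UMIs of the 8 genes per 10000 UMIs and a range of 4.32 to 29.5. At day 0.5, the 6 G2 cells held the highest class levels of Cenpf, 339 CPM (221.5 to 497), and Tpx2, 417 CPM (286 to 589).

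**Figure D3:**
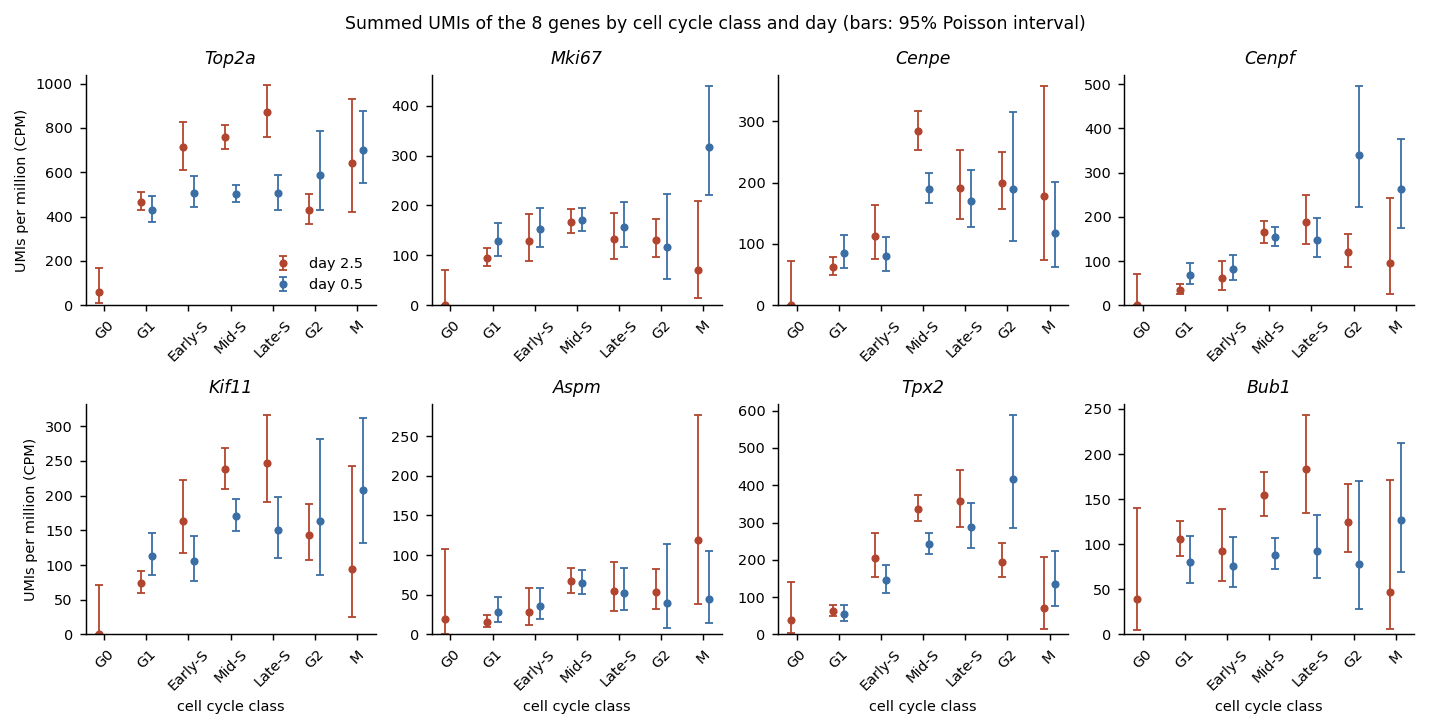
CPM of each gene by cell cycle class, with day 2.5 left of day 0.5 in each class and 95% Poisson intervals. Levels climb from G1 to Mid-S and Late-S in Cenpe, Cenpf, Kif11, Aspm and Tpx2, and Top2a and Bub1 stand higher at day 2.5 in Mid-S and Late-S.

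The M class held few cells and few UMIs. At day 2.5, 3 of 8 genes were higher than in G1 (Aspm, Cenpe and Cenpf) and 1 was lower (Bub1), on 55.5 UMIs of the 8 genes in 7 cells, where 35.1% of 7800 measured genes were higher and 39.4% lower. At day 0.5, 6 of the 7 genes with at least 20 UMIs were higher, all but Cenpe, where 30.3% of 5840 genes were higher and 29.4% lower. Mki67 was at 71.2 CPM (14.7 to 208.2) in M and 95.8 CPM in G1 at day 2.5, and at 317 CPM (220.5 to 440) in M and 128.9 CPM in G1 at day 0.5, a ratio of 2.46 (1.58 to 3.77). Cenpf was at 94.97 CPM in M and 35.1 CPM in G1 at day 2.5, on 4 UMIs in M, and at 262 CPM in M and 68.5 CPM in G1 at day 0.5, a ratio of 3.83 (2.25 to 6.48). Scaling by the median gene shifted the M ratios by -0.86 at day 2.5 and -0.44 at day 0.5 on the log2 scale, and the sum at day 2.5 was then 0.789 of that in G1 in place of 1.43. At day 0.5, where 7 of 8 genes were past a ratio of 1.5 with no minimum of UMIs, 3 were with that scaling, 4 after thinning to 5000 UMIs and 5 without the cell of each group that held the most UMIs of the gene. With cells thinned to 5000 UMIs, which left out 6 of the 15 M cells of day 0.5, Kif11 and Bub1 were lower in M than in G1 at day 0.5, with ratios of 0.759 and 0.854.

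The days were also compared within a class. In Mid-S the sum was 2171 CPM at day 2.5 and 1585 CPM at day 0.5, a ratio of 1.37 (1.29 to 1.45), and 1.42 within batch 2. Top2a (1.51, 1.36 to 1.68) and Bub1 (1.74, 1.36 to 2.24) were higher, 2 of 8 genes, where 22% of 10007 measured genes were higher and 24.9% lower. Cenpe (1.49), Kif11 (1.39) and Tpx2 (1.39) had intervals above 1 without reaching the size of a call. Mki67 (0.981, 0.799 to 1.20), Cenpf (1.07, 0.864 to 1.32) and Aspm (1.03, 0.739 to 1.43) had intervals that held 1.

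In Late-S the sum had a ratio of 1.42 (1.26 to 1.61), and Top2a (1.72), Kif11 (1.65) and Bub1 (1.98) were higher, 3 of 8, where 24.5% of 5458 genes were higher and 25.7% lower. In Early-S the sum had a ratio of 1.27 (1.11 to 1.46) and 1 of 8 genes, Kif11 (1.54), was higher, where 22% of 5920 genes were higher and 28.8% lower. With 8 genes, these counts lie close to the background share, and no gene was called lower in Early-S, Mid-S or Late-S. Cell names carry a letter A or B, of unknown meaning, and in Late-S the cells of letter B, 3 on each day and all in batch 2, had a summed ratio of 0.923.

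In G1 the sum was 919.9 CPM at day 2.5 and 991 CPM at day 0.5, a ratio of 0.928 (0.833 to 1.04), 1.03 within batch 2 and 1.06 with scaling by the median gene. Cenpf (0.513, 0.317 to 0.836), Kif11 (0.658, 0.464 to 0.9401) and Aspm (0.561, 0.264 to 1.22) were lower, 3 of 8, where 24% of 9014 measured genes were lower and 24.2% higher. The Kif11 call came with batch 3, and within batch 2 its ratio was 0.923 (0.598 to 1.45). Cenpf was at 0.619 (0.346 to 1.12) within batch 2.

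**Figure D4:**
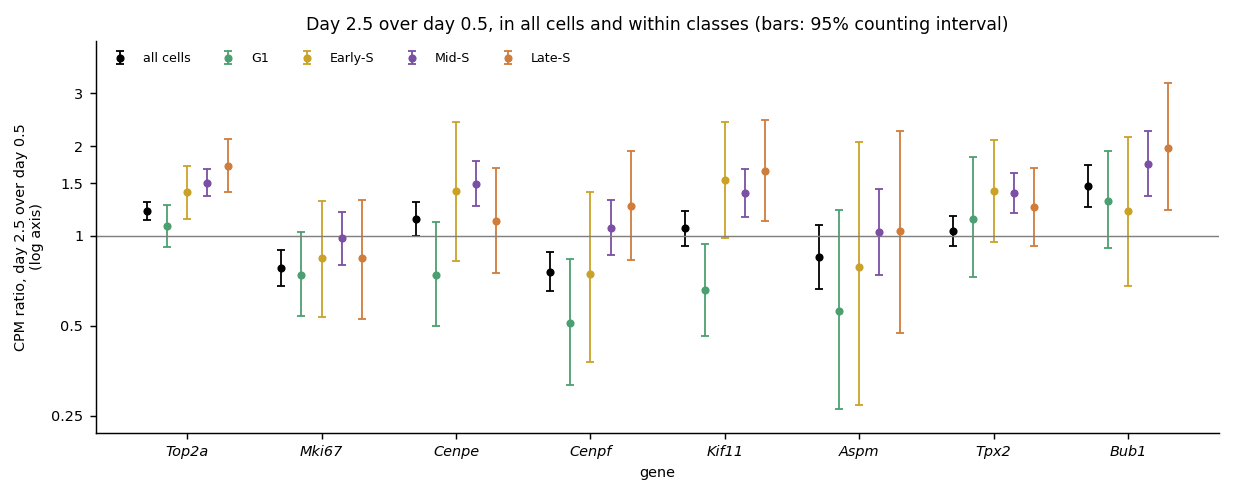
CPM ratio (log axis) of day 2.5 over day 0.5 for each gene, in all cells and within the G1, Early-S, Mid-S and Late-S classes, with 95% counting intervals. For Kif11 the G1 ratio (0.658) lies below 1 and the Mid-S ratio (1.39) above it.

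Cell by cell, Mid-S and Late-S lay above G1 and Early-S in the median. UMIs of the 8 genes per 10000 UMIs of a cell had a median of 8.33 in G1, 16.96 in Early-S, 22.04 in Mid-S and 21.7 in Late-S at day 2.5. At day 0.5 the medians were 8.92 in G1, 11.2 in Early-S, 14.4 in Mid-S and 15.5 in Late-S. The lowest Mid-S cell had 11.4 at day 2.5 and 6.67 at day 0.5, and the highest G1 cell 21.5 at day 2.5 and 19.5 at day 0.5, so the classes overlapped in single cells. No single cell gave more than 1.51% of the day 2.5 UMIs of these genes or 1.29% of those of day 0.5. In small classes the top cell weighed more. At day 2.5, 1 of 7 M cells gave 25.2% of the M class, and the top G0 cell gave 50% of the G0 class. At day 0.5, 1 of 6 G2 cells gave 26.4% of the G2 class. All 8 genes were seen together in 27 of 62 Mid-S cells and 0 of 82 G1 cells at day 2.5, and in 17 of 87 Mid-S cells and 1 of 41 G1 cells at day 0.5. These counts come from cells that were not thinned, and depth differed. The median was 17448 UMIs in Mid-S and 13948.5 in G1 at day 2.5, and 14435 in Mid-S and 11905 in G1 at day 0.5.

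**Figure D5:**
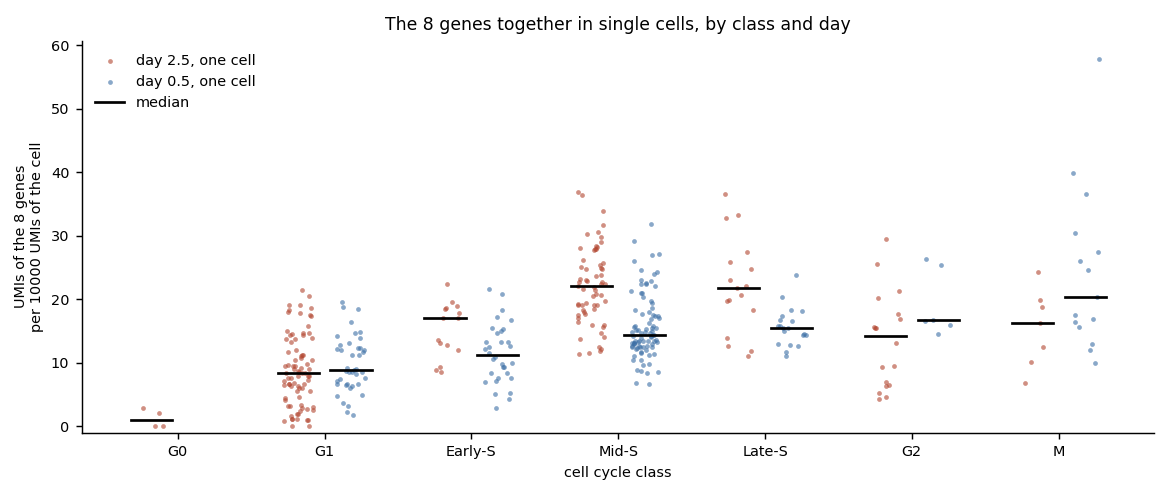
UMIs of the 8 genes per 10000 UMIs of each cell, by cell cycle class, with day 2.5 left of day 0.5 and the median as a black line. Day 2.5 cells reach medians of 22.04 in Mid-S and 21.7 in Late-S, above 14.4 and 15.5 at day 0.5, while both G1 medians lie below 9.

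A measure made from DNA alone gave an order that uses no RNA. When cells of a day were put in quartiles of their share of contacts between chromosomes, the summed level at day 2.5 was 766, 1507, 1605 and 2151 CPM from the lowest to the highest quartile. At day 0.5 it was 1295, 1478, 1411 and 1537 CPM. The lowest quartile held all M cells, 7 at day 2.5 and 15 at day 0.5, and 36 and 24 G1 cells. The highest quartile held 29 Mid-S and 8 G1 cells at day 2.5, and 32 and 6 at day 0.5. At day 2.5, Tpx2 was at 76.9 CPM in the lowest and 286 CPM in the highest quartile, and Cenpf at 39.2 CPM in the lowest and 161.9 CPM in the highest. At day 0.5, Tpx2 was at 142.7 CPM in the lowest and 245.8 CPM in the highest quartile, and Cenpf at 141.9 CPM in the lowest and 139.1 CPM in the highest. Whether the class was made from this share is not known. Median depth in the lowest and highest quartile was 12371 and 16793 UMIs at day 2.5, and 12221 and 11777.5 UMIs at day 0.5. Quartiles of the number of contacts of a cell were made as well. From the lowest to the highest of these, the sum was 1503, 1495, 1387 and 1767 CPM at day 2.5. At day 0.5 it was 1455, 1440, 1332 and 1496 CPM.

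Other genes of mitosis were set beside the 8 in 6 lists of the kinetochore, checkpoint, mitotic kinases, spindle, chromosome structure, and mitotic entry and exit, without the 8 themselves. In Mid-S over G1 at day 2.5, 64 measured genes of the lists were higher, 12 lower and 43 neither, and at day 0.5 34 were higher, 17 lower and 68 neither. Of all measured genes 12.1% were higher and 18.8% lower at day 2.5, and 13.7% higher and 16.6% lower at day 0.5. The list of mitotic kinesins and spindle assembly had 26 of 30 higher and 2 lower at day 2.5 (median ratio 2.12) and 17 of 30 higher and 1 lower at day 0.5 (1.57). Among its most abundant genes, Ckap5, a microtubule polymerase, was at 571 CPM in Mid-S and 192.9 CPM in G1 at day 2.5, and Ect2, the exchange factor that starts cytokinesis, at 469 CPM in Mid-S and 137.1 CPM in G1. Kntc1, a kinetochore protein of the checkpoint placed in the same list, was at 184.2 CPM in Mid-S and 299 CPM in G1, lower in Mid-S.

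The checkpoint list had 3 of 6 genes higher on each day, and Bub1b, the BubR1 kinase, was at 142.4 CPM in Mid-S and 30.3 CPM in G1 at day 2.5. Ttk, the Mps1 kinase, was at 240.1 CPM in Mid-S and 93.1 CPM in G1 at day 2.5, and Mad1l1, which recruits Mad2, at 396 CPM in Mid-S and 300.5 CPM in G1. Mitotic kinases had 8 of 13 genes higher at day 2.5 and 3 of 12 at day 0.5. Incenp, the scaffold of the chromosomal passenger complex, was at 128.4 CPM in Mid-S and 63.3 CPM in G1 at day 2.5.

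The kinetochore and centromere list had 11 of 28 genes higher and 2 lower at day 2.5 and 6 higher and 6 lower of 28 at day 0.5, and its median ratio was 1.26 at day 2.5 and 0.863 at day 0.5. Cenpp, of the inner kinetochore, was at 876 CPM in Mid-S and 895 CPM in G1 at day 2.5. Chromosome structure had 7 of 17 higher and 3 lower at day 2.5 and 2 of 18 higher and 4 lower at day 0.5, and the cohesin regulators Wapl, Pds5a and Pds5b were not called on either day. Mitotic entry and exit had 10 of 26 higher and 5 lower at day 2.5 and 4 of 26 higher and 6 lower at day 0.5. S phase genes lay the other way, with 0 of 39 higher and 34 lower in Mid-S at day 2.5 and 0 higher and 24 lower at day 0.5. Atad2, a chromatin ATPase of that list, was at 167.3 CPM in Mid-S and 486 CPM in G1 at day 2.5, and at 221.6 CPM in Mid-S and 445 CPM in G1 at day 0.5.

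In M over G1 the 6 lists had 41 genes higher, 36 lower and 27 neither at day 2.5, close to the 35.1% higher and 39.4% lower of all genes. At day 0.5, 49 of 98 were higher and 9 lower, beside 30.3% and 29.4% of all genes. In the same comparison 22 of 38 S phase genes were higher at day 2.5 and 24 of 38 at day 0.5. With the median gene as scale the split of the 6 lists was 19 higher and 59 lower at day 2.5, and 31 higher and 22 lower at day 0.5. That scale shifts all genes alike, and their shares under it were not counted, so these counts have no background beside them. Between the days, over all cells, 10 genes of the 6 lists were higher at day 2.5, 22 lower and 97 neither. These are smaller shares than the 21.4% higher and 25.6% lower of all genes. With the median gene as scale 21 were higher and 12 lower, again with no count over all genes. The lower genes of the entry and exit list included Mybl2, which encodes B-MYB, an activator of mitotic genes that acts through the CHR element. Mybl2 was at 77.2 CPM at day 2.5 and 459 CPM at day 0.5, a ratio of 0.168 (0.146 to 0.193). The 8 genes together had a ratio of 1.08, and the median of their single ratios was 1.05.

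The genes whose profile was most like the mean of the 8 were found over 10 groups of day and class with at least 10 cells, among 7708 genes with at least 100 UMIs, by Pearson's r of centred log2(CPM + 5). The 10 nearest were Aurka, Prc1, Hmmr, Nusap1, Cdca2, Bub1b, Ccdc58, Kif23, Bub3 and Smc4, with r from 0.962 to 0.856, against a median of -0.04 over all ranked genes. All but Ccdc58, a protein named for its coiled coils, were in the 6 lists. Aurka, the Aurora A kinase that Tpx2 activates, was at 53.04 CPM in Mid-S and 7.91 CPM in G1 at day 2.5, and at 37.4 CPM in Mid-S and 16.1 CPM in G1 at day 0.5. Of the 8 genes, Kif11 had the highest r with their mean, 0.952, and Mki67 (0.572), Top2a (0.661) and Bub1 (0.663) the lowest. Each of the 8 is part of that mean, so these values are not comparable with those of the 10 nearest genes. The 10 groups share libraries and depth, and each r is a description.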

How the data were processed

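HiRES libraries of up to 2 cells were deposited with tables of the whole series, and cells were tied to samples through the cell names in the sample titles. The authors deposited expected counts of UMIs per gene and cell, of which 11.1% of nonzero values are fractions, and counts of UMIs and contacts per cell, per the file headers. The fraction of contacts that join different chromosomes, the S and G2M score of a cell and a ratio of sex-chromosome reads, which is not reported, are the authors' values too, per the file headers. The submitters' processing notes name build GRCm38. Aligner, counter, use of strand, cell filters and doublet treatment are not stated in any source at hand. Of 471 named cells, 406 were in the expression table, from 228 of 236 libraries, and 1101 further columns of it were not used. No doublet caller was run. Day 2.5 had 205 cells (122 in batch 2) and day 0.5 had 201 (121 in batch 2).

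UMIs of all cells in a group were added and scaled to CPM, with exact Poisson intervals for levels, exact conditional intervals for ratios and Clopper-Pearson intervals for shares (Python 3.11.15, pandas 2.3.3, scipy 1.17.1). The interval of a ratio of ratios was not exact and used a normal approximation on the log scale. Fractional counts were summed as deposited. A gene was called when its CPM ratio reached 1.5, or the inverse, on at least 20 UMIs in both groups together, with no test, since each day is 1 sample. The ratio code was tested on simulated data. Thinning to 5000 UMIs used a fixed seed and left out 7 cells of each day. The genes named are the 8 members, up to 3 of the most abundant genes of each list, and the 10 nearest genes. The members, lists and rules were chosen with earlier results of these data known. For the lists, Mid-S over G1 was chosen after seeing these data, beside the planned M over G1. Alternatives covered scaling, depth, thinning, cell weights, letters, batch 2, leaving out the cell with the most UMIs of a gene, and the cells of the chrX allele table, and cutoffs for the lists.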

Additional observations from a re-analysis of the deposited data

Results flagged for a closer look

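Kif11 stood out because its day 2.5 over day 0.5 ratio lay on opposite sides of 1 in different classes, with counting intervals that exclude 1. The ratio was 0.658 (0.464 to 0.9401) in G1, on 74.2 CPM at day 2.5 and 112.8 CPM at day 0.5. It was 1.39 (1.16 to 1.68) in Mid-S, on 238.2 CPM at day 2.5 and 171.1 CPM at day 0.5, and 1.65 (1.12 to 2.45) in Late-S, on 248 CPM at day 2.5 and 149.95 CPM at day 0.5. The difference between classes was not tested, since each day is 1 sample. Within batch 2, the G1 ratio was 0.923 (0.598 to 1.45), while the Mid-S ratio was 1.44 (1.11 to 1.87), and the low G1 level of day 2.5 lay in batch 3 (38.7 CPM, against 108.3 CPM in batch 2).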

How the results depend on the processing

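Over 72 ratios of single genes, 566 of 623 values under the alternatives stayed within the counting interval of the reported ratio, and 3 turned round: Kif11 (0.759) and Bub1 (0.854) in M over G1 at day 0.5 with cells thinned to 5000 UMIs, and Top2a between the days in Late-S with letter B cells (0.989). For the sum, day 2.5 over day 0.5 was 1.22 with median-ratio scaling, 1.16 with letter B cells, 1.14 in batch 2, 1.02 as a mean over cells, 0.989 after thinning and 1.28 with equal weight per class, so its direction over all cells depends on the choice. Mid-S over G1 at day 2.5 was 2.90 with letter B cells, 1.98 in batch 2 and 2.59 after thinning, and at day 0.5 it was 1.80 with median-ratio scaling, 1.77 with letter B cells and 1.45 in batch 2. M over G1 was 0.789 at day 2.5 and 1.42 at day 0.5 with median-ratio scaling, and at day 0.5 2.45 with letter B cells and 2.47 as a mean over cells. Within G1 the day ratio was 1.06 with median-ratio scaling and 0.792 after thinning, within Mid-S 1.68 with letter B cells and 1.26 after thinning, and within Late-S 0.923 with letter B cells. Among the 6 lists, a ratio of 2 left 1 higher and 10 lower between the days, 5 lower in Mid-S at day 2.5, 12 higher and 5 lower in Mid-S at day 0.5, and 32 higher in M at day 0.5. A minimum of 100 UMIs left 12 lower between the days, 7 lower in Mid-S at day 0.5, 12 higher and 13 lower in M at day 2.5, and 8 higher and 2 lower in M at day 0.5, and no minimum gave 17 lower there. Median-ratio scaling gave 21 higher and 12 lower between the days, 11 lower in Mid-S at day 0.5, 19 higher and 59 lower in M at day 2.5, and 31 higher and 22 lower in M at day 0.5, and batch 2 alone gave 26 higher in M at day 2.5. For the lists, the shares of all genes under these alternatives were not counted. CHR letters lay in 3 promoters within the 100 bases before the start. The causes were not tested. No paired analysis was possible because each day is 1 sample and no result comes from a test. M cells were absent from the allele table, and letter B held too few cells for some classes. Few cells limit the G0 class, G2 at day 0.5 and the M class, whose cells were also shallow.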
